A study of Mus musculus with 15 samples.

Results

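The Notch ligands *Jag1*, *Jag2* and *Dll1*, the receptors *Notch1*, *Notch2* and *Notch3* and the target genes *Hes1*, *Hey1*, *Hey2* and *Heyl* were followed in Mouse Embryonic Fibroblasts (MEFs) treated by 1 of 4 cytokines. The genes were listed by role, and a probe was taken where its identifier is a RefSeq transcript of a listed gene. Each of the 10 genes had 1 probe, of 23462 genes named on the array. *Jag1*, *Notch1*, *Notch2*, *Notch3*, *Hes1* and *Hey1* could be tested (6 of 10 genes), because in 1 or more groups all arrays read their probes well above background. *Jag2*, *Hey2* and *Heyl* were well above background on 0 of 15 arrays and *Dll1* on 1 of 15.

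The MEFs are an established line, Balb/c/3T3 clone A31, and no treatment was shared by all groups. The 5 groups of 3 arrays were untreated controls and cells given TGFß1 at 5 ng/ml, TNFα at 10 ng/ml, IL-1β at 1 ng/ml, or a mix of IL-6 at 20 ng/ml and its soluble receptor sIL-6Rα at 25 ng/ml. RNA of the control, TGFß1 and TNFα groups was taken after 24 h, while for the IL-1β and IL-6/sIL-6Rα groups the labels do not say which of 24 or 72 h applied. The arrays of a group come from separate experiments, but which arrays share an experiment is not labelled, so that p-values measure the spread between these arrays.

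Notch receptors are cut after they bind a ligand on a neighbouring cell, and the released intracellular part joins the DNA-binding protein RBPJ to switch on target genes. The *Hes* and *Hey* genes are the classical targets and encode transcriptional repressors. In fibroblasts the pathway is known for its part in myofibroblast differentiation, where it meets TGFß signalling.

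Values are log2 levels, meaning the log2 brightness of a probe minus the log2 75th percentile of its array, so that 0 is the brightness of the probe at that percentile. A level says how one probe differs between arrays and cannot be set against another probe's level. A gene was called when limma's moderated test gave a q-value under 0.05 over the 29334 probes tested, and its fold-change was 1.5 or more in either direction. An array is called by its group and the number that opens its label. Slide 1 held control 1 and 11, TNFα 14, TGFß1 7, IL-1β 5 and 10 and IL-6/sIL-6Rα 3 and 8, and slide 2 held the other 7 arrays. Between 48.3% and 54.9% of probes were well above background per array. All 10 fibroblast markers, such as *Col1a1* and *Pdgfra*, were well above background on 15 of 15 arrays, while the endothelial markers *Cdh5*, *Kdr*, *Tek*, *Emcn* and *Tie1* were so on 0, *Vwf* on 1 and *Pecam1* on 15. The known response genes *Smad7* (TGFß1), *Tnfaip3* (TNFα and IL-1β) and *Socs3* (IL-6) were called higher in the groups of their cytokines, with log2 fold-changes of 2.02, 3.84, 1.34 and 2.39.

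Upstream sequences were available for 7 of the 10 genes in RefSeq (GRCm38.p6), and 3 are printed: *Jag1* and *Notch2*, which were higher in MEFs treated by TGFß1, and *Hey2*, a target gene that was not detected here. Each is the 250 bases before the gene's start, 5′ to 3′ on the gene's strand, in lower case. Capitals mark the letters CAGAC, the box recognised by SMAD proteins that carry the TGFß signal, and TGGGAA, the core recognised by RBPJ, on either strand. Neither motif overlapped the other.
Jag1 (chr2:137116521-137116770, minus strand): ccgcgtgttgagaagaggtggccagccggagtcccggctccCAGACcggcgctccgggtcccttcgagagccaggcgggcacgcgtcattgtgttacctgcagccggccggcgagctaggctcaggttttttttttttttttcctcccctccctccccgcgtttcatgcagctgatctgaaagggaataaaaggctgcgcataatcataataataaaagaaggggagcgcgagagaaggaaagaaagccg
Notch2 (chr3:98013288-98013537, plus strand): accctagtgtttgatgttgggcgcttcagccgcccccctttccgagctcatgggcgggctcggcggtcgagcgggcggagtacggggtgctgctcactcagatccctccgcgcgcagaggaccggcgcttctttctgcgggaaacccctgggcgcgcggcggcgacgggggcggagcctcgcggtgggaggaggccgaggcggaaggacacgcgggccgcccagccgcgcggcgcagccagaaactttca
Hey2 (chr10:30842784-30843033, minus strand): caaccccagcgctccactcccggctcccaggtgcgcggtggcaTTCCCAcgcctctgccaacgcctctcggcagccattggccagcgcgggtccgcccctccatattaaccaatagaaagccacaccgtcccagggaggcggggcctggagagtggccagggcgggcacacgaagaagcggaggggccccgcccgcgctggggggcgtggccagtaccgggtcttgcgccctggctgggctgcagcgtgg
The *Jag1* window held 1 CAGAC, 209 bases before the start, and no TGGGAA. The *Notch2* window held neither. In the *Hey2* window the reverse complement TTCCCA began 207 bases before the start. Of all 32851 windows of this length, 42.2% held CAGAC and 21.6% held TGGGAA on either strand. Of the remaining windows, that of *Notch3* held 2 copies of CAGAC, the 2 windows of *Dll1* held 1 and 2 copies, and those of *Jag2* and *Notch1* held neither motif.

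**Figure D1:**
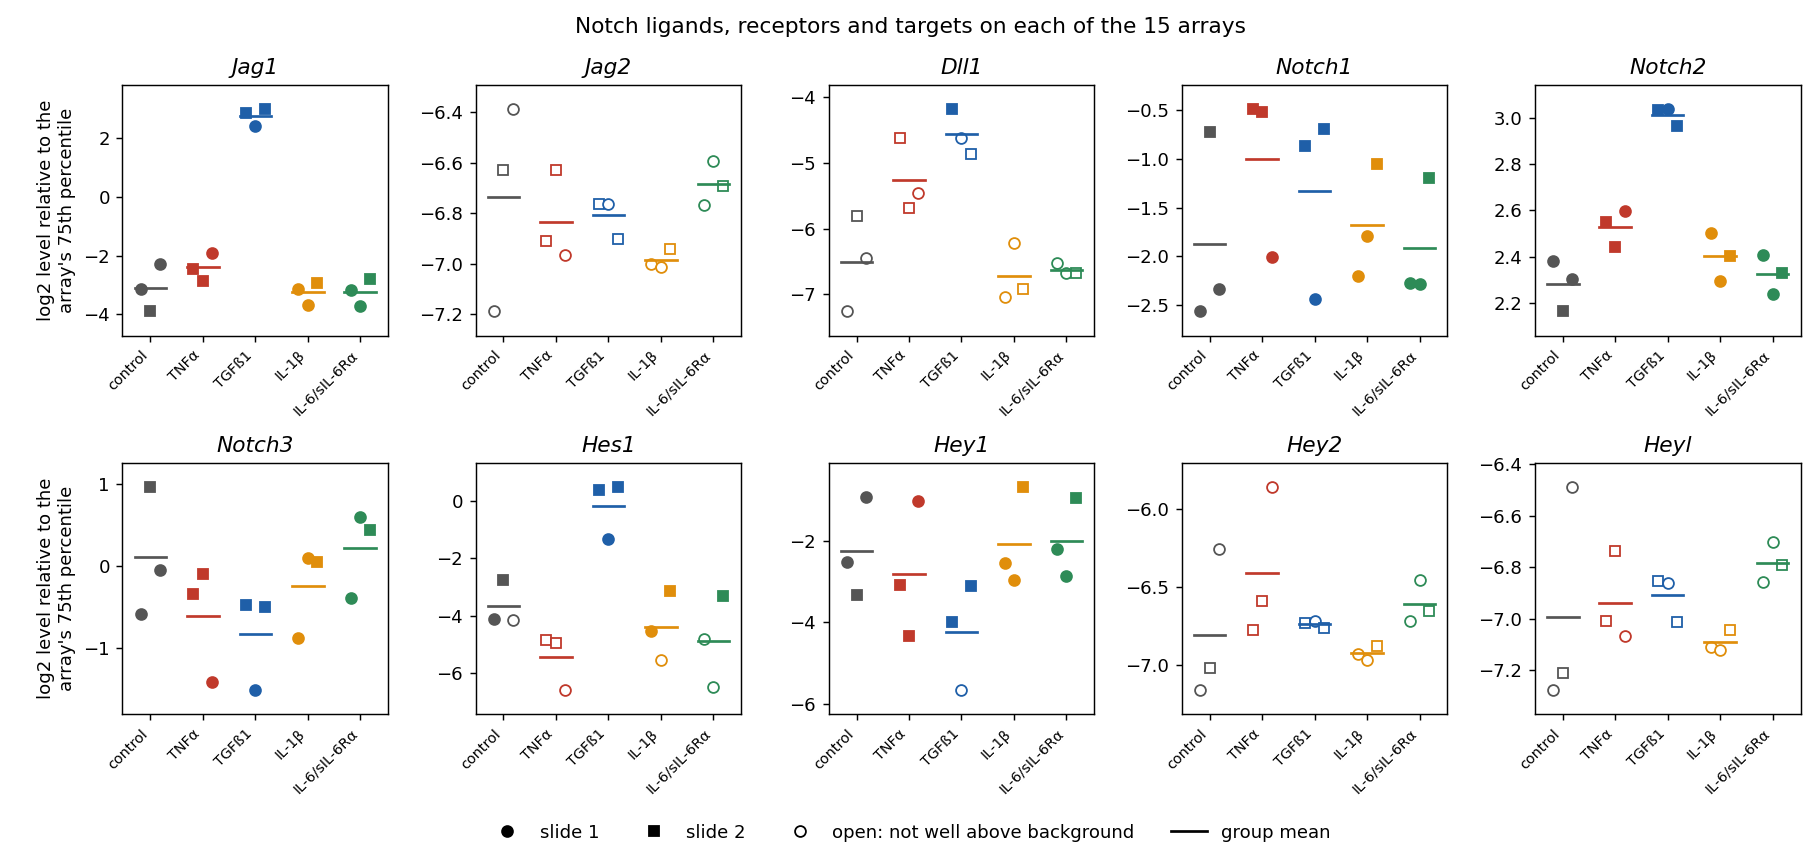
Log2 level of each of the 10 genes (y axes, each with its own range) on the 15 arrays by group (x axes); circles are slide 1, squares slide 2, open symbols arrays not well above background, and bars group means (n = 3). *Jag1* and *Hes1* stood apart in MEFs treated by TGFß1, where *Jag1* lay between 2.41 and 2.98, while *Notch1* followed the slide.

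*Jag1*, which encodes the membrane ligand Jagged1, showed the largest change of the tested genes. In MEFs treated by TGFß1 its level rose 58.0-fold over controls. In bulk RNA, more expressing cells and more RNA per cell cannot be told apart. The log2 level was -3.13 on control 1, -3.90 on control 6 and -2.30 on control 11. With TGFß1 it was 2.85 on array 2, 2.41 on array 7 and 2.98 on array 12. All 3 TGFß1 arrays therefore lay far above every other array of the series. In deposited brightness, the controls read 50.8, 28.9 and 65.9 and the TGFß1 arrays 2594, 1832 and 3000. The log2 fold-change was 5.86 (SE 0.38, q = 1.82e-06), and on slide 1 and slide 2 alone it was 5.12 and 6.82. A different background correction (normexp with an offset of 50) gave 4.56 (q = 2.77e-08). Of the other cytokines, TNFα gave log2 levels of -2.47 (array 4), -2.85 (array 9) and -1.90 (array 14), which overlapped the controls. The log2 fold-change of *Jag1* by TNFα was 0.71 (SE 0.38, q = 0.277) and was not called. With slide and label-number run in the model it was 0.78 (q = 0.00156) and called, and TNFα arrays exceeded the control of their run by 0.66, 1.05 and 0.41. IL-1β arrays lay at -3.12, -3.68 and -2.93, and IL-6/sIL-6Rα arrays at -3.17, -3.73 and -2.81. Neither group was separated from the controls, with log2 fold-changes of -0.13 (95% confidence interval -0.97 to 0.70) and -0.12 (-0.96 to 0.71).

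The other ligands were dim. *Jag2*, which encodes a second Jagged ligand, lay between -7.19 and -6.39 on the 15 arrays, and no array was well above background. *Dll1*, which encodes a Delta-like ligand, was well above background on TGFß1 2 alone, at a log2 level of -4.19. The other TGFß1 arrays were at -4.62 and -4.87. The TNFα arrays of *Dll1* lay at -4.63, -5.69 and -5.46 and the controls at -7.26, -5.81 and -6.45. Arrays treated by TGFß1 or TNFα thus read above all controls, but 5 of these 6 readings were not well above background, so *Dll1* was not tested and no fold-change is given. In the IL-1β and IL-6/sIL-6Rα groups it ranged from -7.04 to -6.22 and from -6.68 to -6.52.

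Among the receptors, *Notch2* rose in MEFs treated by TGFß1. Its log2 levels were 2.38, 2.16 and 2.30 on controls 1, 6 and 11, and 3.03, 3.04 and 2.97 on TGFß1 2, 7 and 12. The groups did not overlap, and the TGFß1 arrays were the highest 3 of the 15. The rise was 1.66-fold, a log2 fold-change of 0.73 (SE 0.10, q = 0.000311), with 0.70 on slide 1 and 0.84 on slide 2. TNFα arrays lay at 2.55, 2.44 and 2.60, all above the controls, with a log2 fold-change of 0.25 (SE 0.10, q = 0.140) that was not called. IL-1β arrays (2.50, 2.30 and 2.40) and IL-6/sIL-6Rα arrays (2.41, 2.24 and 2.33) overlapped the controls. The group means thus ran from control (2.28) over IL-6/sIL-6Rα (2.32), IL-1β (2.40) and TNFα (2.53) to TGFß1 (3.01). Neighbours in this order were compared in 3 cases, and none differed enough to be called: IL-6/sIL-6Rα against control gave 0.04, TNFα against IL-1β 0.13 (q = 0.562) and TGFß1 against TNFα 0.48 (q = 0.00545), the last under the fold-change criterion alone.

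*Notch1* was not called in any of the 8 comparisons. Its probe followed the slide. On slide 2 its log2 levels were -0.73 (control 6), -0.49 and -0.52 (TNFα), -0.87 and -0.70 (TGFß1), -1.06 (IL-1β) and -1.19 (IL-6/sIL-6Rα). On slide 1 all arrays lay lower, between -2.56 (control 1) and -1.79 (IL-1β 10). Against control, TNFα gave a log2 fold-change of 0.87 (SE 0.61, q = 0.412) and TGFß1 one of 0.54 (q = 0.554). With the slide in the model these were 0.41 (q = 0.132) and 0.08 (q = 0.754), and within the slides TNFα differed from control by 0.44 and 0.22.

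*Notch3*, a receptor known from mural cells and fibroblasts, had lower means with TNFα and TGFß1. Control arrays 1, 6 and 11 were at log2 levels of -0.58, 0.96 and -0.04, TNFα arrays 4, 9 and 14 at -0.33, -0.09 and -1.41, and TGFß1 arrays 2, 7 and 12 at -0.47, -1.501 and -0.50. The groups overlapped, since control 1 was below several treated arrays. The log2 fold-change by TGFß1 was -0.93 (SE 0.47, q = 0.175) and by TNFα -0.72 (SE 0.47, q = 0.375), and neither was called. With the slide in the model they were -1.22 (q = 0.0130) and -1.01 (q = 0.0487) and both were called. Within slide 1 and slide 2, TGFß1 differed from control by -1.19 and -1.44, and TNFα by -1.10 and -1.17. On leaving out 1 array, TGFß1 ranged from -1.28 to -0.51 and TNFα from -1.07 to -0.30, both smallest without control 6, and neither was called. IL-1β arrays ranged from -0.88 to 0.09 and IL-6/sIL-6Rα arrays from -0.38 to 0.60, around the controls.

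*Hes1*, the target gene most widely used as a readout of Notch activity, rose in MEFs treated by TGFß1 and was not well above background on any TNFα array. Its log2 levels were -4.11, -2.76 and -4.14 on controls 1, 6 and 11, of which the first 2 were well above background. TGFß1 arrays 2, 7 and 12 stood at 0.37, -1.34 and 0.46. All 3 were above background and above every array of the other groups. The brightness behind them was 464, 137 and 522, against 25.7, 63.7 and 18.5 in controls. *Hes1* could be tested only because all TGFß1 arrays read it well above background, so its q-values with TGFß1 are not independent of that rule. The log2 fold-change was 3.50 (SE 0.84, q = 0.0102). It was 2.79 within slide 1 and 3.18 within slide 2, and 2.90 (q = 0.000230) with the slide in the model. The normexp correction gave 2.13 (q = 0.000203). TNFα arrays 4, 9 and 14 read -4.83, -4.94 and -6.57, below every control. Their readings allow only a floored estimate. For it, each TNFα array took the higher of its own value and its dimmest signal well above background. By this estimate *Hes1* was 2.11-fold lower than in controls. Control 11, which was not well above background either, kept its own value, so the estimate is not a strict bound. The moderated test gave q = 0.209 and no call. With the slide in the model it gave q = 0.00135 and a call, while normexp gave a log2 fold-change of -0.37 (q = 0.479). IL-1β arrays (-4.53, -5.53 and -3.13, 2 of 3 above background) and IL-6/sIL-6Rα arrays (-4.82, -6.49 and -3.30, 1 of 3) overlapped the controls. In every group, controls and TGFß1 included, the *Hes1* probe read higher on slide 2 than on slide 1.

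*Hey1*, a second target gene, read lowest in MEFs treated by TGFß1, the opposite direction to *Hes1*. Control arrays 1, 6 and 11 were at log2 levels of -2.52, -3.32 and -0.92, and TGFß1 arrays 2, 7 and 12 at -3.99, -5.66 and -3.10. TGFß1 7 was not well above background, and TGFß1 12 lay above control 6, so the groups overlapped. The log2 fold-change of -2.00 (SE 0.95, q = 0.152) was not called. It was -0.73 (q = 0.328) with normexp, and ranged from -2.57 to -1.29 on leaving out 1 array. The label numbers run from 1 to 5, 6 to 10 and 11 to 15, each run holding 1 array of every group, and in all 5 groups *Hey1* was highest in the third run and lowest in the second. Within the runs TGFß1 differed from control by -1.47, -2.34 and -2.18. With the run in the model the log2 fold-change was -2.00 (q = 0.000307) and called, with slide and run -1.96 (q = 0.000323), and with the slide alone -2.09 (q = 0.124). Within slide 1 the difference was -3.94 and within slide 2 -0.22, where the only control was from the run with the lowest levels. TNFα arrays (-3.08, -4.33 and -1.01), IL-1β arrays (-2.55, -2.96 and -0.69) and IL-6/sIL-6Rα arrays (-2.21, -2.87 and -0.94) spread as widely as the controls.

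*Hey2* and *Heyl*, the remaining targets, gave no array well above background. *Hey2* ranged from -7.16 to -5.86 and *Heyl* from -7.28 to -6.49. No difference in these genes was detectable at this signal.

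**Figure D2:**
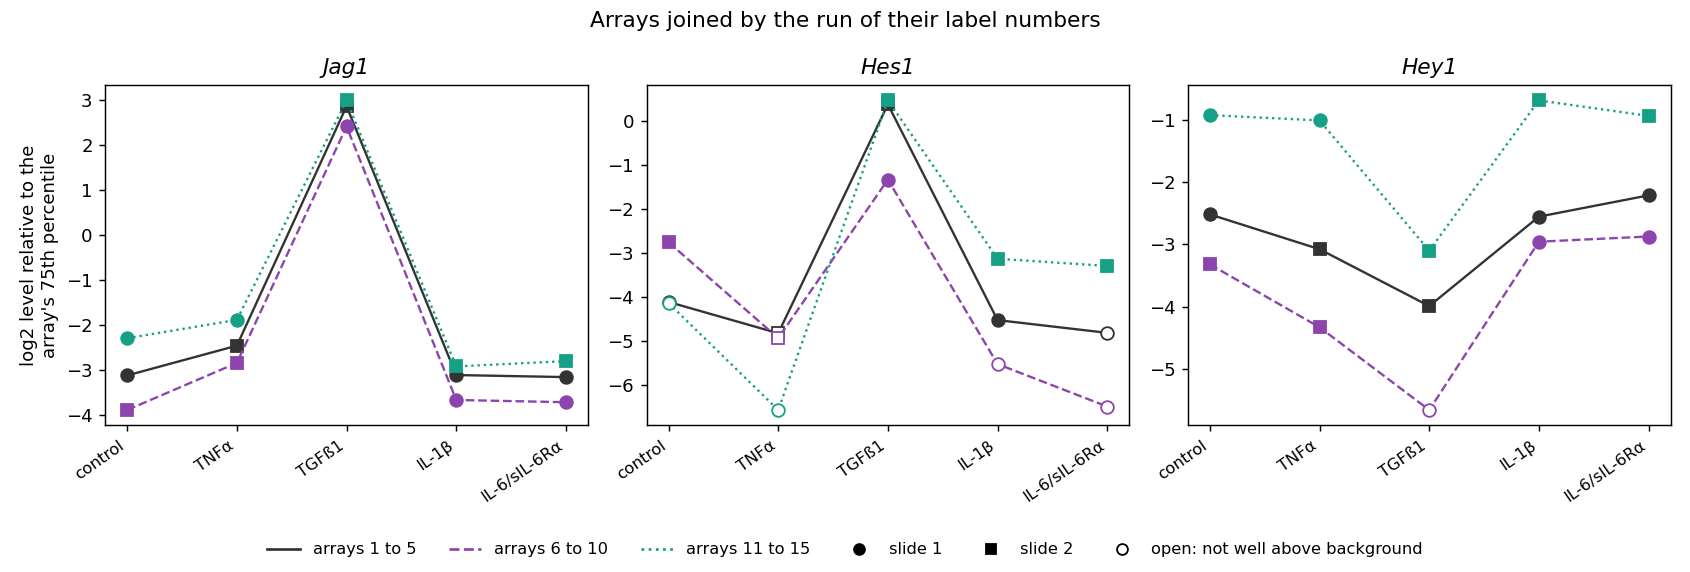
Log2 level (y axes) of *Jag1*, *Hes1* and *Hey1* in the 5 groups (x axes), with arrays of the same label-number run joined by a line; circles are slide 1, squares slide 2, and open symbols arrays not well above background. The 3 lines of *Hey1* kept their order in every group and were lowest with TGFß1 (within-run differences to control -1.47, -2.34 and -2.18), while *Jag1* peaked with TGFß1 in every run.

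Of the 6 tested genes, 3 were called in MEFs treated by TGFß1 compared with controls, all higher (*Jag1*, *Notch2* and *Hes1*). *Hes1* was tested only because all TGFß1 arrays read it well above background, which no other group did. Its call and its part in the count and the median are thus not independent of that filter. Over all probes tested in this comparison, 17.9% were called, 7.51% higher and 10.4% lower. The median log2 fold-change was 0.64 over the 6 genes and 0.07 over all probes. In the TNFα group none of the 6 genes was called by limma, where 10% of all probes were (4.09% higher and 5.96% lower), and 1 gene (*Notch2*) had an unadjusted p under 0.05. IL-1β and IL-6/sIL-6Rα gave 0 calls among the 6 genes, with 0 unadjusted p under 0.05 in each, at backgrounds of 0.232% and 0.058% of probes called. The 4 comparisons share the control arrays. With slide and run in the model, 5 of the 6 genes were called with TGFß1 (*Notch3* and *Hey1* lower, beside the 3 named) and 3 with TNFα (*Jag1* higher, *Notch3* and *Hes1* lower), where 22.7% and 15.4% of all probes were called.

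**Figure D3:**
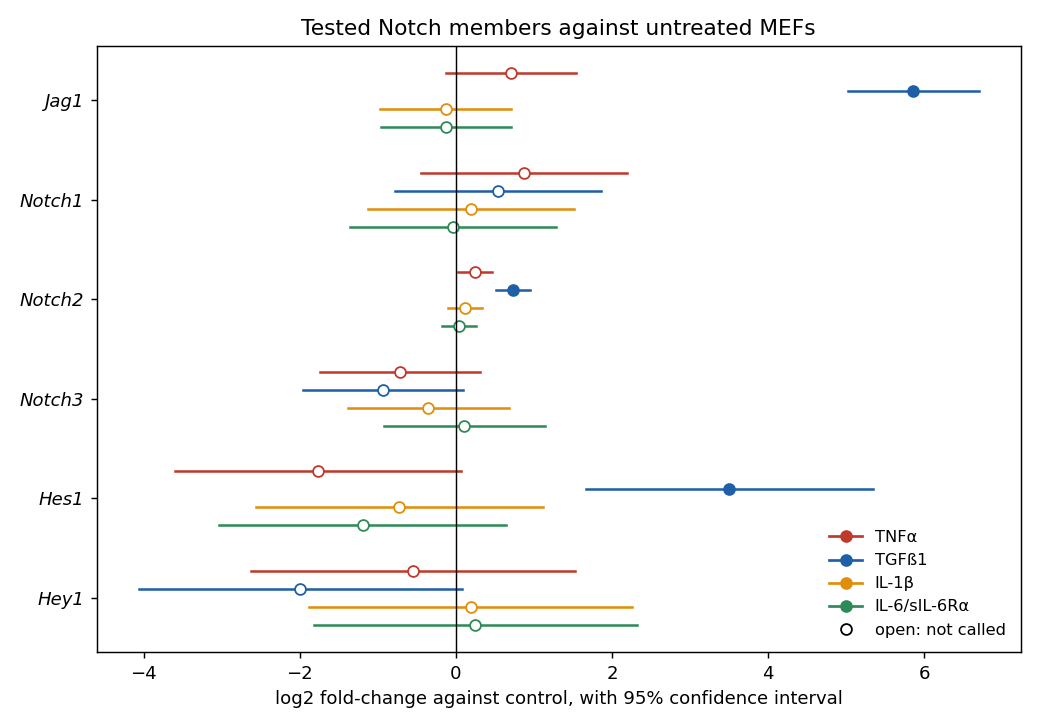
Log2 fold-change against controls (x axis) of the 6 tested genes (y axis) for each cytokine, with 95% confidence intervals (lines); filled points were called, open points were not. The 3 filled points belong to TGFß1: *Jag1* at 5.86, *Hes1* at 3.50 and *Notch2* at 0.73.

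The treatments were also compared with each other at their single doses, which differ. Exposure time is not labelled for the IL-1β and IL-6/sIL-6Rα groups, which may thus also differ from the others in time. Against TNFα, TGFß1 gave a higher *Jag1* by 5.15 (SE 0.38, q = 2.08e-06) on the log2 scale. *Hes1* was 23.9-fold higher by the floored estimate, and the moderated test, without the floor, gave q = 0.000908. With normexp the log2 fold-change of *Hes1* was 2.49 (q = 4.61e-05). *Jag1* and *Hes1* were the 2 calls among the 6 genes, where 11.8% of all probes were called and 5.17% were called higher. With slide and run in the model, *Hey1* was also called lower, with a log2 fold-change of -1.44 (q = 0.00232). Against IL-1β, TGFß1 gave 3 calls, all higher, at a background of 16.9% called and 6.68% called higher. *Jag1* was higher by 5.99 (q = 1.19e-06), *Hes1* by 4.23 (q = 0.00383) and *Notch2* by 0.61 (q = 0.00111), the last near the fold-change criterion and not called without IL-1β 10 (0.56). Against IL-6/sIL-6Rα the same 3 genes were called higher at a background of 16.3% called and 6.57% called higher, by 5.98, 4.70 (q = 0.00196) and 0.69 (q = 0.000476). The *Hes1* probe was well above background on 2 of 3 IL-1β arrays and 1 of 3 IL-6/sIL-6Rα arrays, and normexp gave 2.31 and 2.36 for *Hes1* in these comparisons. *Hes1* was tested only because all TGFß1 arrays read it well above background, so its calls with TGFß1 are not independent of that filter. TNFα and IL-1β, which are both inflammatory cytokines, showed no called difference by limma among the 6 genes (background 4.69%, 1 unadjusted p under 0.05). The TNFα arrays of *Jag1* lay above all IL-1β arrays, by a mean of 0.84 (SE 0.38, 95% confidence interval 0.00198 to 1.67, q = 0.267). This difference was called with the run in the model (0.84, q = 0.00803) and with slide and run (0.91, q = 0.00113). *Hes1*, above background on 0 of 3 TNFα arrays, was called lower with TNFα than with IL-1β once the slide was a term (-1.65, q = 0.0195), as it was for slide and run together (-1.64, q = 0.00369).

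Further genes of the pathway were taken from a list of 52 by role, of which 51 had a probe and 42 could be tested. With TGFß1, 6 of the 42 were called, 4 higher and 2 lower, at the background of 17.9%. With TNFα 4 were called, 1 higher and 3 lower, at 10%. IL-1β and IL-6/sIL-6Rα gave 0 calls by limma, with 2 and 3 unadjusted p under 0.05. The median log2 fold-change over the 42 genes was -0.09 with TGFß1 and -0.06 with TNFα, against 0.07 and 0.04 over all probes.

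Of the further ligands and receptors, *Notch4* and *Dlk1* were called. *Notch4*, a receptor best known from endothelium, stood at log2 levels of -1.82, -2.30 and -1.82 in controls and 1.44, 2.17 and 1.25 with TGFß1. The TGFß1 arrays were well separated, with a log2 fold-change of 3.60 (SE 0.22, q = 1.45e-06). A second *Notch4* probe was well above background on 1 of 15 arrays and was not tested. The TNFα arrays of *Notch4* (-1.79, -2.19 and -1.77) overlapped the controls. *Dlk1*, which encodes a Delta-like protein without the usual receptor-binding domain, fell with both cytokines. Its levels were 6.82, 6.93 and 7.02 in controls, 5.78, 5.41 and 5.89 with TNFα and 5.64, 5.56 and 5.41 with TGFß1. The log2 fold-changes were -1.23 (SE 0.15, q = 0.000233) and -1.39 (SE 0.15, q = 7.00e-05), and its second probe gave -1.32 and -1.52. *Dll3* and *Dll4* were well above background on 0 arrays.

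Of the 8 tested processing genes, which mature and cut the receptors, *Furin* was higher with TGFß1 (0.78, SE 0.13, q = 0.00113) and *Psen2*, a catalytic subunit of γ-secretase, was lower (-1.05, SE 0.20, q = 0.00267). With TNFα none of the 8 was called by its brightest probe. *Psen2* gave -0.64 (q = 0.0542), while its second probe gave -0.97 (q = 0.0398) with TNFα and -1.18 (q = 0.00930) with TGFß1. The 3 tested glycosylation genes gave 0 calls in both groups. Of the 10 tested genes of endocytosis and turnover, 1 was called, *Numbl*, which encodes a relative of the Notch antagonist Numb. It was lower with TNFα (-0.76, SE 0.13, q = 0.00286). Its second probe gave -0.53 (q = 0.0254), under the fold-change criterion.

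All 16 listed genes of the nuclear complex were tested. *Rbpj*, which encodes the DNA-binding partner of cut Notch, rose with TNFα. Its levels were 3.71, 3.28 and 3.47 in controls and 4.26, 4.15 and 4.38 on TNFα arrays 4, 9 and 14, without overlap. The log2 fold-change was 0.78 (SE 0.12, q = 0.00148), and 0.82 (q = 0.00160) by its second probe. Scaled to each array's median, it was 0.68 (q = 0.0772) and not called. With TGFß1 *Rbpj* was at 3.35, 3.30 and 3.22 (-0.20, q = 0.281). The corepressor *Ctbp2* was higher with TGFß1 (0.65, SE 0.11, q = 0.00121), but not called after quantile normalization (0.55) or without scaling between arrays (0.51). Among the other *Hes* genes 2 of 5 were tested, and *Hes6*, which encodes a protein that counteracts Hes1, was lower with TNFα (-0.78, SE 0.19, q = 0.0183), but not called after median scaling (q = 0.0522) nor without control 11 (q = 0.0730) or TNFα 4 (q = 0.0818). Its second probe gave -0.85 (q = 0.0752).

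**Figure D4:**
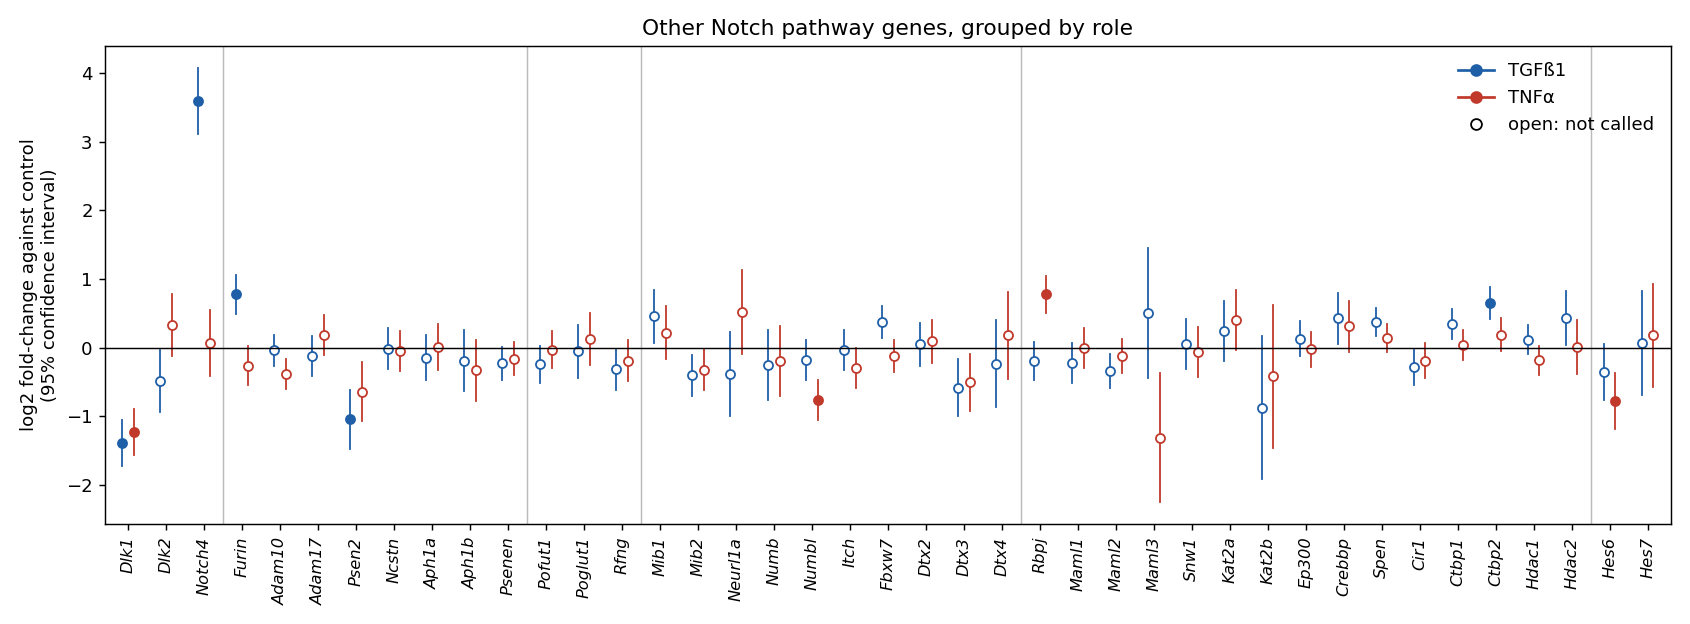
Log2 fold-change against controls (y axis) of 41 of the 42 other tested pathway genes (x axis), grouped by role between the grey lines in the order ligands and receptors, processing, glycosylation, endocytosis and turnover, nuclear complex and other *Hes* genes; blue is TGFß1, red TNFα, lines are 95% confidence intervals and filled points were called. *Notch4* stands out at 3.60 with TGFß1, and *Dlk1* is low with both cytokines.

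The genes whose levels over the 15 arrays were most like those of *Jag1*, *Hes1* and *Hey1* were taken from 13517 genes by Pearson's r, given as a description of arrays that share slides and treatments. For *Jag1* they were *Golm1* (r = 0.992), *Acvr1* (0.988), a receptor of the TGFß family, and *Cnnm4* (0.987). With TGFß1 these 3 had log2 fold-changes of 1.47, 1.03 and 1.65, each smaller than that of *Jag1*. For *Hes1* they were *Tnni1* (0.969), *Polk* (0.939) and *Cblb* (0.933), with log2 fold-changes of 1.43, 0.41 and 1.32. For *Hey1* they were *Acer3* (0.927), *Taf6* (0.920) and *Dph7* (0.918), which had small log2 fold-changes with TGFß1 of -0.31, -0.17 and -0.20.

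Markers of other cell types were read on the same arrays. Of 7 endothelial markers, 5 were well above background on no array, and *Pecam1* was on all. The summed endothelial level ranged from -2.86 to -2.50 in controls and from -2.77 to -2.63 with TGFß1, where *Notch4* and *Jag1* were higher. A part of endothelial cells in those results was not tested. Of 6 epithelial markers, 0 were above background on every array and *Cdh1* and *Krt5* on none, while *Krt18* was on 10, *Krt8* on 4, *Krt14* on 3 and *Epcam* on 1. Their summed level was -3.05 to -2.00 in controls and -1.98 to -0.61 with TGFß1, and the part of this difference in the results for *Jag1*, *Notch2* and *Hes1* was not tested. Of 7 leukocyte markers, *Csf1r*, *Itgam* and *Cd3e* were well above background on 15 of 15 arrays, *Cd79a* on 2 and *Ptprc* and *Adgre1* on none, and the summed level overlapped between controls (3.33 to 4.46) and TGFß1 (3.56 to 4.4). The summed level of the fibroblast markers was 10.9 to 11.1 in controls and 10.3 to 10.6 with TNFα, where *Hes1* was not well above background and *Rbpj* was higher, and its part in those results was not tested.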

How the data were processed

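RNA of 15 cultures was labelled with Cyanine 3 and hybridized to one-color whole-mouse 60-mer arrays. The authors extracted spot brightness with Agilent Feature Extraction (10.7.3.1 per the labels), and the deposited values are intensities after the software's background subtraction and detrending, without normalization between arrays. The study names limma, a Z-score for its heat map, and calls at a fold-change of 1.5 and a q-value under 0.05; it describes neither a scaling of the arrays ahead of the test nor a filter for dim probes. A deposited matrix of the same intensity values, unscaled, served for an alternative.

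Here, spots with the software's marks for uneven or outlying signal were dropped, the log2 intensities of a probe's spots were averaged, and each array's 75th percentile (325 to 445) was subtracted. The mark of being well above background was required of a share of 0.5 or more of a probe's spots. No spot was saturated. The 29334 of 56605 probes that all arrays of 1 or more groups read well above background were tested in a fit of all 15 arrays with group as the only term (limma 3.58.1, R 4.3.3, with the packages data.table and jsonlite; two-sided, Benjamini-Hochberg adjustment over all probes). The fit was tested on simulated data with independent arrays, which leaves out any likeness between arrays of a slide or run. Probes were named through RefSeq transcripts (33767 of 56605 matched); where a gene had several, its brightest probe stands for it. Gene positions are not given, because the array's design used an older assembly.

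The 10 genes, the pathway and marker lists and the tests were chosen with earlier results of these data known. Named are the 10 genes, up to 10 listed pathway genes called against control by largest change, the 3 genes most like each of the 3 members with the widest range of group means, cytokine response genes and cell type markers. Alternatives were normexp (offset 50), quantile, median and no scaling, 2 other filters, slide and label-number run as blocks, fewer arrays, a variance trend, marked spots kept, mean over probes, other fold-change criteria (none, 2), and each array left out. The number of arrays limits the precision. Figures were drawn with matplotlib, and upstream windows are RefSeq's (GRCm38.p6). The values of 1 called pathway gene, 1 response gene and 1 marker are not reported here.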

Additional observations from a re-analysis of the deposited data

How the results depend on the processing

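Of the calls with TGFß1 against controls, *Notch2* was lost at a fold-change of at least 2, and *Hes1* could not be tested where every array must be above background. In all other alternatives *Jag1*, *Hes1* and *Notch2* stayed called. Apart from the settings that left out 1 array, the log2 fold-changes were 4.56 to 5.93, 2.13 to 3.50 and 0.59 to 0.75. On leaving out 1 array they were 5.46 to 6.26, 3.19 to 4.09 and 0.67 to 0.78. The labels give the groups no shared replicate numbers, so which arrays pair is not known. The reported calls come from a fit without pairing, and fits with the runs of label numbers as blocks are given beside them. With group and slide removed, same-run arrays of different groups correlated at r of 0.11 to 0.67 (30 of 30 pairs over 0.1), and 2 of 60 pairs of different runs were over 0.1. Without removing the slide these counts were 12 of 30 and 28 of 60. Member calls moved by over 1.5 times, or from 0, as follows: TNFα against control 2 with slide, 3 with slide and run and 1 with run (0 as reported); TGFß1 against control, IL-1β and IL-6/sIL-6Rα 5 each with slide and run (3 each); TGFß1 against TNFα 1 with probes above background on all arrays (2); TNFα against IL-1β 1 with slide, 2 with slide and run and 1 with run (0). Smaller moves with the slide or the run were TGFß1 against control and IL-6/sIL-6Rα 4 with each alone, against IL-1β 4 with run, and against TNFα 3 with run and with slide and run. Pathway calls with TNFα were 7 with slide and run and 1 at a fold-change of at least 2 (4), and with TGFß1 11 without a fold-change criterion (6). The cause of these moves was not tested. Leaving out each array kept the member counts at 0, 3, 0 and 0 (TNFα, TGFß1, IL-1β, IL-6/sIL-6Rα), at 2 for TGFß1 against TNFα, 3 against IL-6/sIL-6Rα, 2 to 3 against IL-1β and 0 for TNFα against IL-1β, and gave 3 to 6 and 6 to 7 pathway calls with TNFα and TGFß1. Signs turned only in uncalled values. On leaving out an array, with IL-1β *Jag1* ranged from -0.53 to 0.27, *Notch1* from -0.15 to 0.76, *Notch3* from -0.70 to 0.0712 and *Hey1* from -0.50 to 0.85; with IL-6/sIL-6Rα *Jag1* from -0.52 to 0.28, *Notch1* from -0.40 to 0.53, *Notch2* from -0.0170 to 0.0914, *Notch3* from -0.24 to 0.53 and *Hey1* from -0.29 to 0.91; and with TNFα *Hey1* from -1.45 to 0.21. *Notch1* with IL-6/sIL-6Rα was 0.0176 with normexp. *Notch2* was not called against IL-1β with normexp (0.55), quantile (0.50) or no scaling (0.46), nor against IL-6/sIL-6Rα without scaling (0.52). Without scaling the median over all probes moved by -0.14 for TGFß1 against control, -0.15 against IL-1β and -0.17 against IL-6/sIL-6Rα. *Hes1*, *Hey1* and *Dll1* lie near background, where signal limits the fold-changes. *Jag1* was well above background on 15 of 15 arrays, but its controls were dim too, at 28.9 to 65.9 in deposited brightness. Its log2 fold-change with TGFß1 thus also depended on the background correction (5.86, or 4.56 with normexp).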
